A study of Mus musculus with 4 samples.

Results

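The genes of TGF-beta, BMP and activin signalling were examined in the mouse diaphragm, the main muscle of breathing, by comparing the strip that holds the nerve-muscle synapses with muscle that holds none. The members are all probe sets whose platform annotation gives a single gene symbol of this family, that is symbols beginning with Tgfb, Bmp, Gdf, Inhb, Acvr or Smad, and the symbols Mstn, Nog, Chrd, Fst, Fstl1, Fstl3, Grem1 and Ltbp1 to Ltbp4. These were 121 of the 45101 probe sets, for 58 genes. No probe set had Mstn as its single symbol, so myostatin itself was not read here. Total RNA came from the left hemi-diaphragm, with 2 arrays of the synaptic region and 2 arrays of the non-synaptic region. The labels name no allele or agent, and the sources used here do not give strain, age, sex or the number of animals. The tests therefore measure only how arrays of a region differ, and that spread may be technical.

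Ligands of this family are secreted dimers that bind pairs of type I and type II receptor kinases on the cell surface. The receptors phosphorylate Smad proteins, which enter the nucleus with Smad4 and change transcription, while Smad6 and Smad7 act as inhibitors. Outside the cell, proteins such as noggin, chordin and follistatin hold ligands away from their receptors. Some of the latent TGF-beta binding proteins tether TGF-beta to the matrix. In skeletal muscle, activins and myostatin are known to restrain muscle mass, BMP signalling is known to support it, and BMP signalling also takes part in the growth of motor nerve terminals in flies.

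The array values are intensities on a linear scale. Values under the 20th percentile of all values, an intensity of 158.891, were raised to it as a floor, so the lowest log2 intensity is 7.31. Probe sets with a mean log2 intensity under 8.87, the 40th percentile, were not tested. This left 86 of the 121 member probe sets, and 46 of the 58 genes. Each gene was read from its probe set with the highest mean, and differences are log2 intensities of the synaptic minus the non-synaptic region, with the moderated standard error (SE, n = 2 arrays per region) of limma.

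No member differed between the regions past the test over all probe sets. By limma with Benjamini-Hochberg adjustment, of the 86 tested member probe sets 0 passed an adjusted p under 0.05 in either direction, and each had an adjusted p = 0.999909. Over all 26480 probe sets tested the calls were 0.00378% higher and 0.00755% lower. At an unadjusted p under 0.05 the member genes numbered 0 higher and 1 lower, and the lower gene was Bmp5. Among all 12363 genes measured, 0.825% were higher and 0.372% lower at that level. The median difference of the 46 member genes was 0.02, against 0.005 over all genes measured. Both synaptic arrays lay above both others in 6 member genes and below both in 4, that is 13.0% and 8.70%, beside 10.6% and 9.85% of all genes. These shares lay near those of all genes.

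The spread of the differences varied by role. Of 14 ligand genes measured, 6 differed by at least 0.5 in either direction, and all 6 had the arrays of the regions apart. On the probe set with the highest mean, the count was 0 among the 18 receptor and Smad genes, and the remaining roles also had 0. Other probe sets reached that size in Smad7 (0.73), Tgfbr3 (-0.59) and Bmp1 (-0.70). Of the 86 member probe sets 9 differed by at least 0.5, beside 2149 of all 26480 tested. Over all genes measured 6.02% reached that size, against 13.0% of the members. The median SE was 0.29 for the ligands and 0.21 for the receptors and Smads, so the ligands were also measured less precisely. The difference in spread between the roles was not tested.

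**Figure D1:**
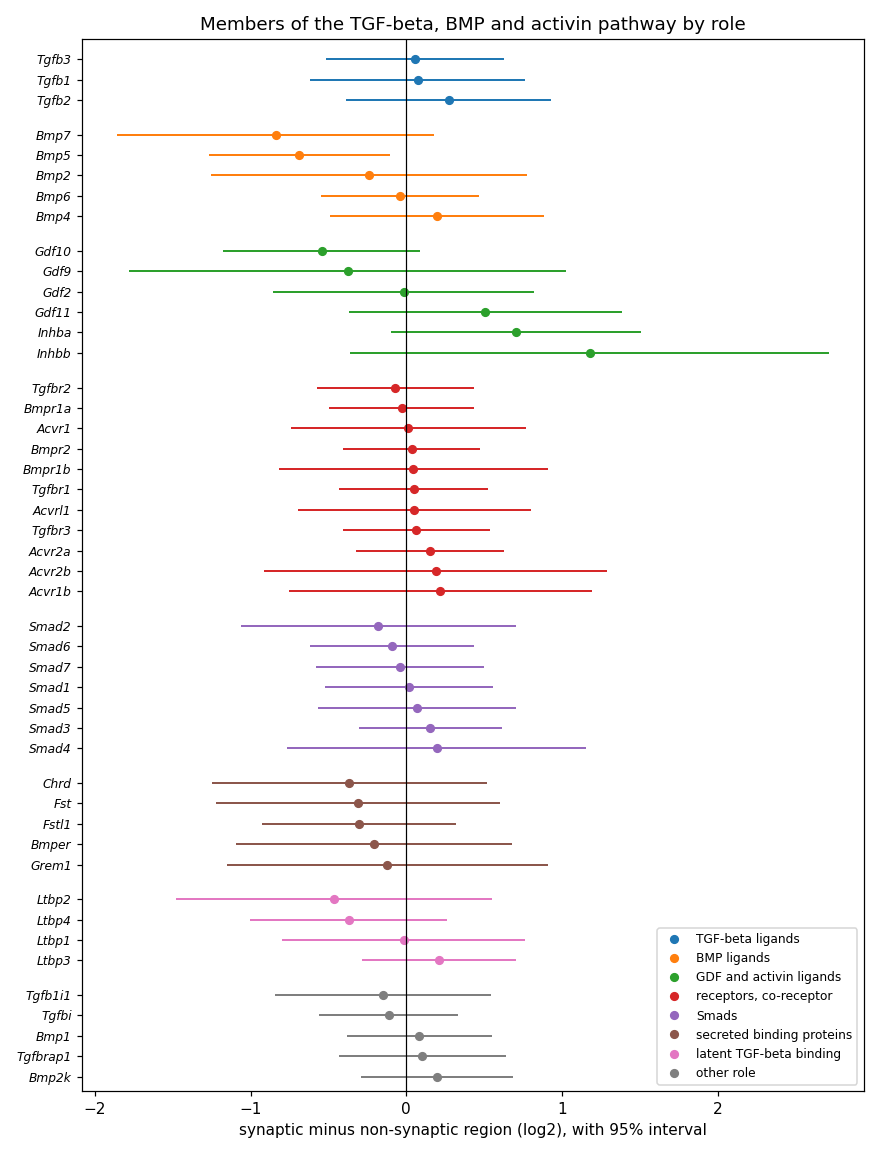
Difference between the synaptic and the non-synaptic region on the log2 scale (x axis) for each of the 46 measured member genes (y axis), with points for the estimate and lines for the 95% interval of limma, coloured by role. Receptors and Smads lie between -0.18 and 0.22, while ligands lie between -0.84 and 1.18, and the interval of Bmp5 alone does not include 0.

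The promoters of the ligands that stood furthest apart are shown because these genes lead the comparison. Of the 6 ligands, 5 have an entry in the RefSeq promoter table of build GRCm38.p6, and Bmp7 is named only. Each line gives the 250 bases before the transcription start, 5′ to 3′ on the gene's strand. Capitals mark the Smad box, spelled CAGAC on either strand, a short sequence that Smad proteins can bind.
Bmp5 (chr9:75775115-75775364, plus strand): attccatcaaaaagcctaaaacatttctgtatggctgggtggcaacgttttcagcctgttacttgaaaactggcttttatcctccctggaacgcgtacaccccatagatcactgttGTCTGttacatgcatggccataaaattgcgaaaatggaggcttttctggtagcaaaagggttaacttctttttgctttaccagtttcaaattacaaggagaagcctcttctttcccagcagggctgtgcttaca
Gdf10 (chr14:33923337-33923586, plus strand): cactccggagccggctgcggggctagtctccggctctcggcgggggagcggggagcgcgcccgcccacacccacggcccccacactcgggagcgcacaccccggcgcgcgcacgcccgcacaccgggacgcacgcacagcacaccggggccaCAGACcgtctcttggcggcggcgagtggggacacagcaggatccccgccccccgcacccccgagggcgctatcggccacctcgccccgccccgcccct
Gdf11 (chr10:128891719-128891968, minus strand): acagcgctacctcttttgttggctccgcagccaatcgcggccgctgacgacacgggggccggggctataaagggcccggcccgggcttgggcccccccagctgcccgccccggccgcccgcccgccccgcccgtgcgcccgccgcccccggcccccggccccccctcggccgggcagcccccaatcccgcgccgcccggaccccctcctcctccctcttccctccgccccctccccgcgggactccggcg
Inhba (chr13:16011601-16011850, plus strand): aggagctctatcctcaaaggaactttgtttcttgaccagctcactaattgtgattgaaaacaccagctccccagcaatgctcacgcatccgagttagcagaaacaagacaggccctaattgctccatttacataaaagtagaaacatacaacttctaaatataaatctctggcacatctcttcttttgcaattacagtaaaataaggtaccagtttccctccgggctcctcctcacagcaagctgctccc
Inhbb (chr1:119422249-119422498, minus strand): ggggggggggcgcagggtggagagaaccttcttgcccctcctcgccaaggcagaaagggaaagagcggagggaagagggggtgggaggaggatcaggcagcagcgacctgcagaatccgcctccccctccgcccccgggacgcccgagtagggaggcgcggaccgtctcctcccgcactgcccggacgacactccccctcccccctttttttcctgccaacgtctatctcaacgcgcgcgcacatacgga

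The Smad box occurred in 2 of these 5 windows, once in Bmp5 with its first base at position -134 from the start, on the opposite strand, and once in Gdf10 at position -98. Over all 32851 promoter windows of this length 42.2% held it, and so did 41.9% of the 43 windows of the 34 measured member genes that matched the table. The N-box, spelled CCGGAA on either strand, is the sequence through which ETS factors act on genes of the subsynaptic nuclei. It occurred in 0 of the 5 windows, in 9.30% of the member windows and in 12% of all windows. The 4 members that held it were Acvr1, Bmp4, Bmpr1b and Ltbp1. The E-box, spelled CANNTG and bound by myogenic factors, occurred in 1 of the 5 windows, that of Gdf11, in 41.9% of the member windows and in 66.2% of all windows. The G and C content of the 5 windows ran from 42.8% in Bmp5 to 81.2% in Gdf11.

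The ligands with the regions apart and the higher readings in the synaptic region were the activin subunits Inhbb and Inhba, and Gdf11. Inhbb encodes the beta B subunit, which forms activin B. Its log2 intensity was 10.28 and 10.23 in synaptic RNA and 8.22 and 9.93 in non-synaptic RNA. The synaptic arrays lay close together and above both others, and the non-synaptic arrays were far apart from each other. The difference was 1.18 ± 0.60 (SE, 95% interval -0.35 to 2.71). Leaving out non-synaptic replicate 1 gave 0.32 and leaving out replicate 2 gave 2.04, so its size rests on which of these arrays is used. The other probe set of Inhbb, below the filter, read 8.92 and 8.55 in the synaptic arrays against 9.04 and 8.86, with the regions overlapping.

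Inhba encodes the beta A subunit, which forms activin A. It read 10.14 and 10.43 in synaptic RNA and 9.82 and 9.34 in non-synaptic RNA. The regions did not overlap, and the difference was 0.70 ± 0.31 (95% interval -0.09 to 1.5). Gdf11, a close relative of myostatin that binds activin type II receptors, read 9.70 and 9.28 against 8.89 and 9.08. Again the regions did not overlap, and the difference was 0.51 ± 0.34 (95% interval -0.36 to 1.38). Inhba has another probe set, at the floor on all 4 arrays. Leaving out 1 array at a time gave 0.46 to 0.95 for Inhba and 0.30 to 0.72 for Gdf11. The sign could not change, since the regions did not overlap.

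The ligands with the regions apart and the lower readings in the synaptic region were Bmp5, Bmp7 and Gdf10. Bmp5, a BMP of the group that also holds Bmp6 and Bmp7, read 10.31 and 10.33 in synaptic RNA and 11.07 and 10.94 in non-synaptic RNA. The arrays of each region lay close together, with a gap between the regions. The difference was -0.69 ± 0.23 (95% interval -1.26 to -0.11, adjusted p = 0.999909 by limma), or a mean intensity of 1277 ± 13.8 against 2057 ± 139 (SD, n = 2). A probe set of Bmp5 below the filter was at the floor on 3 arrays and at 9.31 on non-synaptic replicate 2. Another probe set of Bmp5, which was tested, differed by 0.003 ± 0.69, with 8.67 and 9.75 against 8.38 and 10.04. The mean over the tested probe sets of Bmp5 was -0.34, with an interval that included 0. When any 1 array was left out the difference ran from -0.76 to -0.62, and the interval then included 0 in each case.

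Bmp7 read 8.68 and 9.30 in synaptic RNA and 9.54 and 10.13 in non-synaptic RNA. The regions did not overlap, although the arrays within each region were further apart than the nearest arrays of different regions. The difference was -0.84 ± 0.40 (95% interval -1.85 to 0.17). Its other 2 probe sets lay below the filter and disagreed in direction. One read 7.82 and 8.52 in the synaptic arrays against 7.31, the floor, and 7.58. Its difference with no filter was 0.73, with both synaptic arrays above the others. The other probe set differed by -0.28. Gdf10, also called BMP3B, read 11.49 and 11.31 against 12.17 and 11.72, a difference of -0.54 ± 0.25 (95% interval -1.17 to 0.08). Its synaptic arrays both lay below the others. On the probe sets with the highest mean, the size of the differences moved with single arrays. Leaving out 1 at a time gave -1.15 to -0.53 for Bmp7 and -0.77 to -0.32 for Gdf10. With the regions apart, no single array could change the sign.

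**Figure D2:**
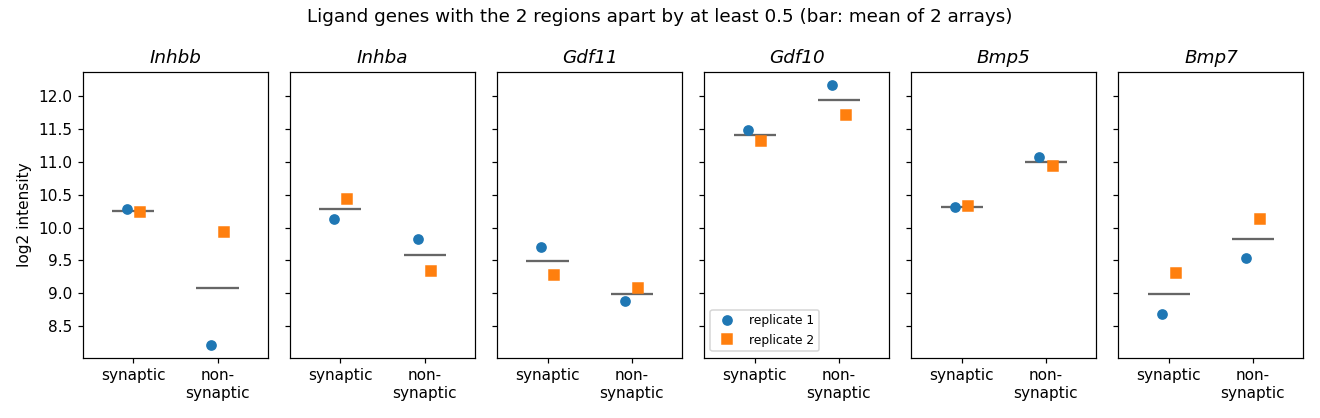
Log2 intensity (y axis) of the 6 ligand genes whose regions were apart by at least 0.5, with a circle for replicate 1 and a square for replicate 2 of each region and a bar for the mean of the 2 arrays. Inhbb, Inhba and Gdf11 have the higher synaptic readings, Gdf10, Bmp5 and Bmp7 the lower, and the non-synaptic arrays of Inhbb, at 8.22 and 9.93, are the furthest apart.

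Markers of other cells differed between the same arrays. For comparison, 10.6% of all genes measured had both synaptic readings above the others and 9.85% had both below. Limma called 0.00378% of all probe sets higher and 0.00755% lower. All 7 measured Schwann cell markers had both synaptic readings above the others (median 1.37, 1 of them, Mbp, called by limma), with a summed intensity of 105426 to 114302 in the synaptic arrays and 30487 to 32417 in the others, and S100b was below the filter. Of 5 measured fat cell markers 4 had both synaptic readings below the others (median -2.57, 1 of them, Adipoq, called by limma), with a summed intensity of 229413 to 254541 against 254538 to 265022, most of it from Fabp4 and Lpl. Adipoq, the fat cell hormone, was at 7.54 and 7.56 against 13.14 and 12.82, and the synaptic readings of Pck1 were both at the floor, while Lep and Cidec were below the filter. Of 6 smooth muscle and pericyte markers 3 had both synaptic readings below the others (median -0.16), with a summed intensity of 209841 to 250755 against 229804 to 235190. Fibroblast, endothelial, macrophage and mesothelial markers, all measured, had list medians of -0.08, -0.24, -0.02 and -0.03. The part of these cells in the ligand readings was not tested. In such pieces of muscle, fewer cells of a type and less RNA per cell cannot be told apart. The 9 skeletal muscle fibre markers, among them Acta1 and Ckm, were all measured, with a median of 0.03, and Myh4, the myosin of fast IIB fibres, differed by -1.32 ± 0.18. The subsynaptic marker genes Chrna1, Chrne, Ache and Etv5 differed by 1.97 to 3.11, and their list had a summed intensity of 28099 to 31074 in synaptic RNA and 6615 to 7403 in non-synaptic RNA. Musk, the receptor kinase that gathers acetylcholine receptors, differed by 0.28 ± 0.32 with the regions overlapping, and Chrnd and Colq were below the filter.

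The remaining BMP ligands did not have the regions apart. Bmp4 read 11.82 and 12.28 in synaptic RNA and 11.66 and 12.05 in non-synaptic RNA, a difference of 0.20 ± 0.27. Bmp2 differed by -0.24 ± 0.40 and Bmp6 by -0.04 ± 0.20, with intervals of -1.25 to 0.77 and -0.54 to 0.46. The remaining GDF ligands were Gdf2, known as BMP9, at -0.02 ± 0.33, and Gdf9, known from the oocyte, at -0.38 ± 0.55. Gdf9 was the less steady of these, with the same-region arrays of the synaptic piece at 10.47 and 9.04.

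The 3 TGF-beta ligands differed little. Tgfb2 read 11.70 and 11.82 in synaptic RNA and 11.23 and 11.75 in non-synaptic RNA, a difference of 0.27 ± 0.26. Its 4 probe sets gave from -0.27 to 0.27, so that no direction was shared. Tgfb1, the form best known from fibrosis, read 11.67 and 11.30 against 11.63 and 11.19, a difference of 0.07 ± 0.27. Tgfb3 read 12.79 and 12.38 against 12.46 and 12.60, a difference of 0.05 ± 0.22. On the probe set with the highest mean of each gene, the regions overlapped and the 95% interval lay within a 2-fold change in either direction. Such an interval was found for 69.8% of all genes measured. Other probe sets went beyond 2-fold, with intervals of -1.25 to 0.85 on one of Tgfb1 and -1.07 to 0.64 on one of Tgfb2.

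On the probe set with the highest mean of each gene, the receptors had small differences. The 11 measured genes lay between -0.07 and 0.22, with a median of 0.05. For 9 of them the 95% interval lay within a 2-fold change in either direction, beside 69.8% of all genes measured. Acvr2a, an activin type II receptor, read 12.56 and 12.68 in synaptic RNA and 12.43 and 12.51 in non-synaptic RNA. It was the receptor gene with the regions apart, and the difference was 0.15 ± 0.18 (95% interval -0.32 to 0.62). Acvr1b, the activin type I receptor ALK4, read 13.32 and 12.36 against 12.87 and 12.37, and Acvr2b, another type II receptor, read 11.72 and 10.58 against 11.16 and 10.76. In both the arrays of a region were further apart than the regions, with differences of 0.22 ± 0.38 and 0.19 ± 0.43, and these were the receptor genes whose intervals went beyond 2-fold. Without replicate 2 of the synaptic piece they were 0.70 for Acvr1b and 0.76 for Acvr2b, and without its replicate 1 they were -0.26 and -0.38.

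The receptors of TGF-beta itself were Tgfbr1 at 0.05 ± 0.19, Tgfbr2 at -0.07 ± 0.20 and the co-receptor Tgfbr3, also called betaglycan, at 0.07 ± 0.18. The BMP receptors were Bmpr1a at -0.03 ± 0.18, Bmpr1b at 0.04 ± 0.34 and the type II receptor Bmpr2 at 0.03 ± 0.17. Acvr1, a type I receptor for BMPs, differed by 0.01 ± 0.29, and Acvrl1, the endothelial receptor ALK1, by 0.05 ± 0.29. All 8 intervals included 0, and in none were the regions apart. Their other tested probe sets reached further, with -0.59 ± 1.02 for Tgfbr3, -0.46 ± 0.59 for Bmpr1a and 0.46 ± 0.33 for Bmpr2, each with an interval that included 0.

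On the probe set with the highest mean, the Smads, which carry the signal to the nucleus, lay between -0.18 and 0.20. Smad3, which transmits TGF-beta and activin signals, read 13.74 and 13.55 in synaptic RNA and 13.55 and 13.43 in non-synaptic RNA, a difference of 0.16 ± 0.18. Smad2, its close relative, read 10.87 and 11.67 against 11.24 and 11.65, a difference of -0.18 ± 0.34. The shared partner Smad4 read 14.73 and 13.70 against 14.21 and 13.83, a difference of 0.20 ± 0.37. Its other probe sets, closer between arrays, gave 0.12 ± 0.16 and 0.10 ± 0.17. The Smads of the BMP branch were Smad1 at 0.02 ± 0.21 and Smad5 at 0.07 ± 0.25. Other probe sets gave -0.36 ± 0.66 and 0.07 ± 1.56 for Smad3, and -0.19 ± 0.30 and -0.10 ± 0.66 for Smad5.

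The inhibitory Smads are themselves known targets of the pathway. Smad6 differed by -0.09 ± 0.20, with both synaptic arrays below the others by a small margin. Smad7 read 12.31 and 12.09 against 12.36 and 12.12 on the probe set with the highest mean, a difference of -0.04 ± 0.21. On its other probe set it read 10.28 and 10.02 against 9.86 and 8.98, a difference of 0.73 ± 0.39 (95% interval -0.27 to 1.73), so the probe sets of Smad7 disagreed.

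Of the secreted proteins that bind BMPs and activins, the 5 that passed the filter had negative differences and overlapping regions, while Fstl3 and Nog, below the filter, are described with the low readings. The 5 genes had a median of -0.30 and ran from -0.36 to -0.12. Chordin, encoded by Chrd, read 10.78 and 10.01 in synaptic RNA and 10.93 and 10.60 in non-synaptic RNA, a difference of -0.36 ± 0.35. Follistatin, encoded by Fst, binds activins and myostatin. It read 10.27 and 11.15 against 11.14 and 10.90, a difference of -0.31 ± 0.36, and its other probe set gave -0.31 ± 0.29. Fstl1, a secreted follistatin relative, read 14.31 and 14.73 against 14.60 and 15.05, a difference of -0.30 ± 0.24, with -0.07 on its other probe set. Bmper differed by -0.21 ± 0.35 and the BMP antagonist Grem1 by -0.12 ± 0.40. Each of these 5 differences had a 95% interval that included 0. Chrd turned to 0.02 without synaptic replicate 2, and Fst to 0.13 without synaptic replicate 1.

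Some of the latent TGF-beta binding proteins fix TGF-beta in the matrix. Ltbp2 read 10.19 and 9.25 in synaptic RNA and 10.30 and 10.08 in non-synaptic RNA, a difference of -0.47 ± 0.40. Ltbp4 read 13.89 and 14.42 against 14.36 and 14.69, a difference of -0.37 ± 0.25, and Ltbp3 read 13.98 and 13.86 against 13.87 and 13.55, a difference of 0.21 ± 0.19. Ltbp1 differed by -0.02 ± 0.30. The regions overlapped in all 4 genes.

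The rule also takes in 5 genes named for the pathway with another role. Bmp2k, a kinase induced by BMP2, read 12.06 and 12.03 in synaptic RNA and 11.86 and 11.83 in non-synaptic RNA, a difference of 0.20 ± 0.19, with its other probe sets at 0.17 and -0.11. The regions of Bmp2k were apart by a small margin. Tgfb1i1, the focal adhesion protein Hic-5, read 11.84 and 12.46 against 12.23 and 12.37, a difference of -0.15 ± 0.27. The matrix protein Tgfbi read 13.71 and 13.63 against 13.88 and 13.69, a difference of -0.11 ± 0.17, and all 4 of its probe sets had negative differences, from -0.22 to -0.08. Bmp1, a procollagen protease and not a BMP, differed by 0.08 ± 0.18, with -0.70 ± 0.61 on its other tested probe set. Tgfbrap1 differed by 0.10 ± 0.21 and by -0.40 ± 0.21 on its other tested probe set, where both synaptic arrays lay below the others.

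Of the members, 12 genes lay below the filter on every probe set. These were Acvr1c, Bmp10, Bmp15, Bmp8a, Bmp8b, Fstl3, Gdf3, Gdf5, Inhbc, Inhbe, Nog and Smad9. With no filter, 58 member genes were tested, and at an unadjusted limma p under 0.05 these numbered 2 higher (Fstl3 and Bmp2k) and 3 lower (Bmp5, Bmp10 and Bmp15), beside 1.90% higher and 1.40% lower of all genes. Fstl3, a secreted inhibitor of activins and myostatin, read 9.25 and 9.47 in the synaptic arrays, against the floor of 7.31 and 7.55 in the non-synaptic arrays. Its difference, as a lower bound on the size, was 1.93 (adjusted p = 0.426 by limma with no filter). Bmp10, a ligand known from the heart, was just above the floor in the synaptic arrays at 7.31 and 7.42. It read 8.73 and 9.37 in the others, a difference of -1.68 (adjusted p = 0.925 by limma with no filter).

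Acvr1c, the receptor ALK7 known from fat cells, had 2 of its 3 probe sets at the floor in all synaptic RNA. Its non-synaptic arrays read 8.55 and 8.43 on one of them and 8.22 and 8.60 on the other. The differences, as lower bounds on the size, were -1.18 (adjusted p = 0.205 by limma with no filter) and -1.10 (adjusted p = 0.823). The probe set of Acvr1c with the highest mean read 7.84 and 8.82 against 7.92 and 8.47, with the regions overlapping. The fat cell markers given above differed in the same direction, and their part in the Acvr1c and Bmp10 readings was not tested. Noggin, encoded by Nog, was at the floor on both non-synaptic arrays and at 7.91 and 7.57 in the synaptic arrays. Of the 121 member probe sets, 7 were at the floor on all 4 arrays.

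Probe sets of one gene could differ more between arrays of the same region than between regions. Of 25 member genes with more than 1 tested probe set, 13 had probe sets with differences of opposite sign. The sample titles end in a number, taken here as the replicate number. On 8 of the 86 probe sets, or 9.30%, the array of replicate 2 was at least 2-fold above that of replicate 1 in both regions, beside 3.12% of all probe sets. It was at least 2-fold below in both regions for 0 members and 0.563% of all probe sets. The 8 probe sets belong to Smad3, Tgfbr1, Tgfbr2, Tgfbr3, Smad5 and Bmp5, and none was the probe set with the highest mean of its gene. One of Smad3 was at the floor of 7.31 on both replicate 1 arrays and at 10.85 and 10.70 on the replicate 2 arrays of the synaptic and the non-synaptic region. One of Tgfbr1 read 7.31 and 7.89 on the replicate 1 arrays and 10.35 and 10.17 on the replicate 2 arrays. The 3' to 5' signal ratio of the pyruvate carboxylase control probe sets was 3.71 and 2.86 on the replicate 1 arrays and 1.06 and 1.69 on the replicate 2 arrays. That of actin was 1.37 and 1.27 against 1.19 and 1.20, and that of Gapdh 1.03 and 0.853 against 0.814 and 0.815. Over the 86 member probe sets the median absolute log2 difference was 0.258 and 0.159 between arrays of replicates 1 and 2 across the regions, against 0.446 within the synaptic and 0.342 within the non-synaptic region. The part of RNA quality in these readings was not tested.

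**Figure D3:**
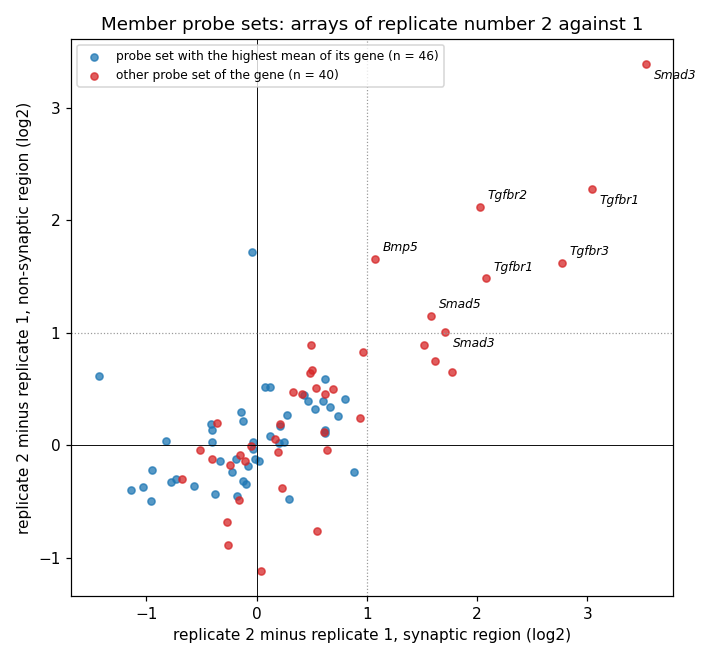
Log2 intensity of replicate 2 minus replicate 1 in the synaptic region (x axis) and in the non-synaptic region (y axis) for the 86 tested member probe sets, blue for the probe set with the highest mean of each gene and red for its other probe sets. Dotted lines mark a 2-fold difference. The 8 named probe sets beyond both lines are all red, and that of Smad3 at the upper right is the furthest from 0.

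Known targets of the pathway were read from a list of 26 genes on the array, of which 23 were measured. By limma 0 were called higher or lower over all probe sets. At an unadjusted p under 0.05 there were 0 in either direction, beside 0.825% higher and 0.372% lower of all genes measured. The median was -0.04. Of the 23 genes, 3 had both synaptic arrays above the others and 3 below, beside 10.6% and 9.85% of all genes. Skil, a Smad corepressor, read 13.58 and 13.38 in synaptic RNA and 13.01 and 13.27 in non-synaptic RNA, a difference of 0.34 ± 0.20. Tagln, a smooth muscle actin-binding protein, read 12.48 and 12.39 against 12.78 and 12.78, a difference of -0.34 ± 0.18. Ccn2, a matrix protein induced by TGF-beta, read 13.06 and 13.26 against 12.92 and 12.87, a difference of 0.26 ± 0.18. The inhibitors of differentiation are targets of BMP signalling. Id1, Id3 and Id4 differed by -0.07 ± 0.19, 0.05 ± 0.18 and 0.11 ± 0.35, with the regions overlapping. Id2 differed by -0.35 ± 0.24, with both synaptic arrays below the others.

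Of 49 further regulators of the pathway 41 were measured, with a median of 0.03. By limma 0 were called over all probe sets. At an unadjusted p under 0.05 they numbered 1 higher and 0 lower of the 41, beside 0.825% and 0.372% of all genes measured. The higher gene was Itgb8, the integrin subunit that with the alpha v chain releases active TGF-beta from its latent form. It read 10.16 and 10.76 in synaptic RNA and 8.42 and 9.18 in non-synaptic RNA, and the regions were well apart. The difference was 1.66 ± 0.41 (adjusted p = 0.999909 by limma). Its partner Itgav differed by 0.15 ± 0.17, and Itgb6, another subunit that activates TGF-beta, by -0.20 ± 0.36. The Schwann cell and the subsynaptic markers differed in the same direction, and the part of either in the Itgb8 reading was not tested. Ski, a Smad corepressor, read 13.51 and 13.14 against 13.13 and 12.87, a difference of 0.32 ± 0.22. Decorin, encoded by Dcn, a proteoglycan that binds TGF-beta, read 16.59 and 16.38 against 16.40 and 16.14, a difference of 0.21 ± 0.17.

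**Figure D4:**
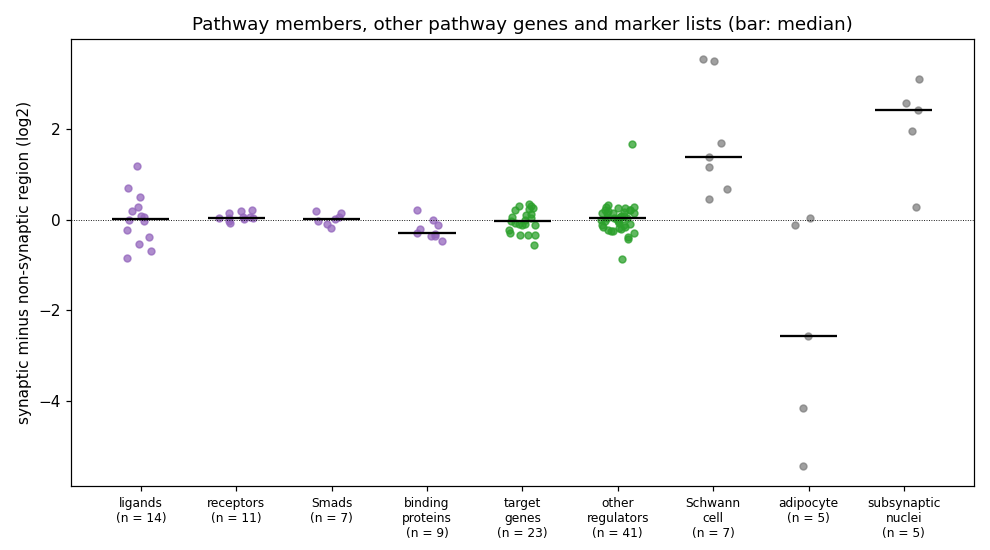
Difference between the synaptic and the non-synaptic region on the log2 scale (y axis) for each measured gene of the member roles (purple), of the other pathway lists (green) and of 3 marker lists (grey), with a bar for the median. All 14 ligands are drawn together around a median of 0.02, although the BMP ligands have a median of -0.24 and the GDF and activin ligands one of 0.25. The 9 secreted and latent binding proteins have a median of -0.30, while the Schwann cell, fat cell and subsynaptic markers have medians of 1.37, -2.57 and 2.41.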

How the data were processed

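Each region of the diaphragm was measured on 2 one-colour arrays. What the authors deposited is a linear intensity for every probe set. The sources used here do not give the scanner or the summary method. The authors' scaling was kept, under which the 2% trimmed mean was 2500 on each array, with medians from 658 to 769 and between 18.7% and 21.3% of values at the floor. The number of arrays limits the precision.

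Values were raised to the floor, put on the log2 scale and tested with limma 3.58.1 in R 4.3.3 (2-sided, with an eBayes prior that follows intensity, 2 residual degrees of freedom, prior worth 3.16). The 64 control probe sets were left out. With 2 arrays against 2, an exact permutation test could reach 0.333 at best, and was not run. Platform gene names, which can be old, were updated through Entrez identifiers with RefSeq tables of GRCm38.p6, which matched all 121 member probe sets. The platform gave a single gene for 34958 probe sets, several for 932 and none for 9211.

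All tested members may be named. Readings on all 4 arrays are given for genes with an unadjusted p under 0.05, with regions apart by at least 0.5, or among the 3 of smallest p in their role. Of the other pathway lists, the 3 genes of smallest p are given. Genes beside these, and the motifs, were chosen after their values were seen. The members and lists were chosen with earlier results of these data known. Alternatives were other scalings, floors, filters and priors, a block for the replicate number, each array left out in turn, and the mean over a gene's probe sets. On simulated arrays, with noise drawn separately for each array, the fit recovered the sizes of known changes but passed none of them at the adjusted threshold. In these data same-numbered arrays deviated together, and 1 probe set passed as higher and 2 as lower. The simulation therefore does not measure the power here. With 2 arrays per region, a count of none called says little about the size of a change.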

Additional observations from a re-analysis of the deposited data

How the results depend on the processing

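The count of member probe sets past the adjusted threshold was 0 in each direction under the 13 alternatives run on probe sets, and with the mean over a gene's probe sets 0 named genes passed it. The other counts moved. At an unadjusted p under 0.05, 1 member gene was higher with the floor at the 40th percentile (1.89%, beside 1.34% of all genes), 2 were higher and 3 lower with no filter (3.45% and 5.17%, beside 1.90% and 1.40%), and 0 were lower with the mean over a gene's probe sets (beside 0.461%). With regions apart, 10 were higher after quantile normalization (21.7%, beside 11.3%), 7 lower with no filter (12.1%, beside 9.71%) and 3 higher with the filter at the 60th percentile (8.57%, beside 9.25%). The median was 0.0363 with median centring (0.0243 over all genes), 0.0350 with the filter at the 60th percentile (0.00522) and -0.0774 with the mean over probe sets (-0.0144). With 1 array left out at a time, 0 to 1 genes were higher and 0 to 2 lower at that p, beside at most 1.35% and 1.63% of all genes. Genes with regions apart then numbered 11 to 19 higher and 10 to 18 lower, that is 23.9% to 39.6% and 21.7% to 37.5%, beside 25.3% to 37.4% and 26.5% to 32.3% of all genes, since fewer arrays separate more easily. Medians ran from -0.0252 to 0.0514. The cause of the other shifts was not tested.

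With the replicate block, 2 member genes were higher (Inhba and Inhbb) and 5 lower (Bmp5, Bmp7, Fstl1, Gdf10 and Ltbp4) at an unadjusted p under 0.05, that is 4.35% and 10.9%, beside 3.17% and 2.64% of all genes, and no member probe set passed the adjusted threshold. Same-numbered arrays deviated together (correlation 0.634 over probe sets), and their median absolute log2 difference was 0.204 and 0.158, against 0.351 and 0.298 between arrays of a region. The labels do not say what the number marks, so it was not taken as a pairing, and what same-numbered arrays share was not tested. Of the 26 genes given on all arrays, 13 changed sign under some alternative. None of them was among the 6 ligands with regions apart. These ligands were picked for separated readings, so leaving out a single array could not change their sign. Bmp7, Gdf11, Inhba and Inhbb were not tested under the stricter of the alternative filters. Under the alternatives that kept 2 arrays per region, 0 of the 26 genes passed the adjusted threshold.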
